A study of Saccharomyces cerevisiae with 6 samples.

Results

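The autophagy (ATG) genes of Saccharomyces cerevisiae were followed in cultures treated with clioquinol (CQ), a small molecule of the hydroxyquinoline family that chelates metal ions such as copper, zinc and iron. The members were all probe sets annotated to a single S. cerevisiae gene whose symbol is ATG followed by a number, which gave 34 genes of the 5449 measured, each with 1 probe set of its own. ATG42, ATG44 and ATG45 were not analysed here, and 2 genes of the pathway known under other names, VPS30 (Atg6) and SNX4 (Atg24), were counted among its partners. Both groups were wild-type BY4742, a haploid mating type alpha descendant of S288C, taken from mid-log growth in YPD, a rich medium, and diluted into the same fresh medium. One group of 3 cultures then received 80 µM CQ and the other 3 received 1% dimethyl sulfoxide (DMSO) for 5 h. The submitters call the 3 cultures of a group biological replicates. The DMSO content of the CQ cultures is not given, so an effect of the solvent cannot be told apart from that of CQ.

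In autophagy a membrane sac grows around cytoplasm, closes, and fuses with the vacuole, where its content is broken down. The core genes build that membrane, most of them in every form of the process. The selective genes tie particular cargo to it, such as mitochondria, peroxisomes, endoplasmic reticulum or vacuolar enzymes. In growing yeast the cytoplasm-to-vacuole targeting (Cvt) route uses most of the core machinery to deliver enzymes to the vacuole, and starvation or inhibition of the TORC1 kinase complex induces bulk autophagy. Transcript levels do not measure the flux of either route.

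Values are linear intensities of Affymetrix probe sets, and differences are CQ minus DMSO on the scale of log2(intensity + 16), which understates changes of dim genes. Values after ± are standard errors of the fitted log2 differences. A gene is said to have risen or fallen where limma gave an adjusted p (Benjamini-Hochberg over the 5449 genes) under 0.05. Levels of different probe sets are not comparable, so only differences are set side by side. In RNA of whole cultures, fewer cells with a transcript and less transcript per cell cannot be told apart.

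The arrays had median intensities of 889.7 to 1008 over all genes. The array also carries fission yeast probe sets, and their 95th percentile, taken as background, was an intensity of 41.8 to 59.8. All 34 ATG genes lay above background on every array of at least 1 group, and none of the 17 fission yeast atg probe sets did so on all arrays, their highest value being 42.5. The 3' to 5' index, the log2 ratio of the 3' to the 5' probe sets of 6 control genes, which tracks RNA integrity, was 0.96, 0.96 and 0.88 with DMSO and 1.30, 1.53 and 1.15 with CQ. Every CQ array had a higher index than every DMSO array, so the part of RNA integrity in the results cannot be told apart from that of CQ. A fit that held the index as covariate was run, but it cannot separate the 2 either. Values from that fit are given where they end a call, and for some other genes whose value they moved. The deleted marker genes LEU2, LYS2 and URA3 read 7.38 to 58.6, and HIS3, of which BY4742 keeps a part, read 732.3 to 1703. The 4 alpha-specific genes read 1774 to 7313 with DMSO and 850.5 to 3019 with CQ, and the 5 a-specific genes 60.6 to 103.5 and 46.8 to 253.3, all above background. All 4 alpha-specific genes fell, SAG1 by 1.28 and MF(ALPHA)1 by 1.21, and 4 of the 5 a-specific genes rose, MFA1 by 1.31. The part of this shift in the results was not tested.

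With CQ most ATG genes rose, although the class held members that fell. Of the 34 genes, 21 rose, 6 fell and 7 did not pass the threshold. Over all genes 36.1% rose and 31.9% fell, against 61.8% and 17.6% of the ATG genes. Together 79.4% of the members passed, against 68.0% of all genes. The CQ arrays lay wholly above the DMSO arrays for 22 members (38.6% of all genes) and wholly below for 6 (35.1% of all genes). The median log2 difference was 0.47 for the ATG genes and 0.02 for all genes. At least 2-fold increases were found in 7 ATG genes, namely ATG1, ATG2, ATG11, ATG23, ATG39, ATG40 and ATG41, and no member fell by that much. Over all genes 9.71% rose and 7.51% fell at least 2-fold. When every array was centred on its own median, the counts over all genes were 1578 higher and 2211 lower in place of 1969 and 1739, and the ATG genes gave 19 higher and 6 lower.

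**Figure D1:**
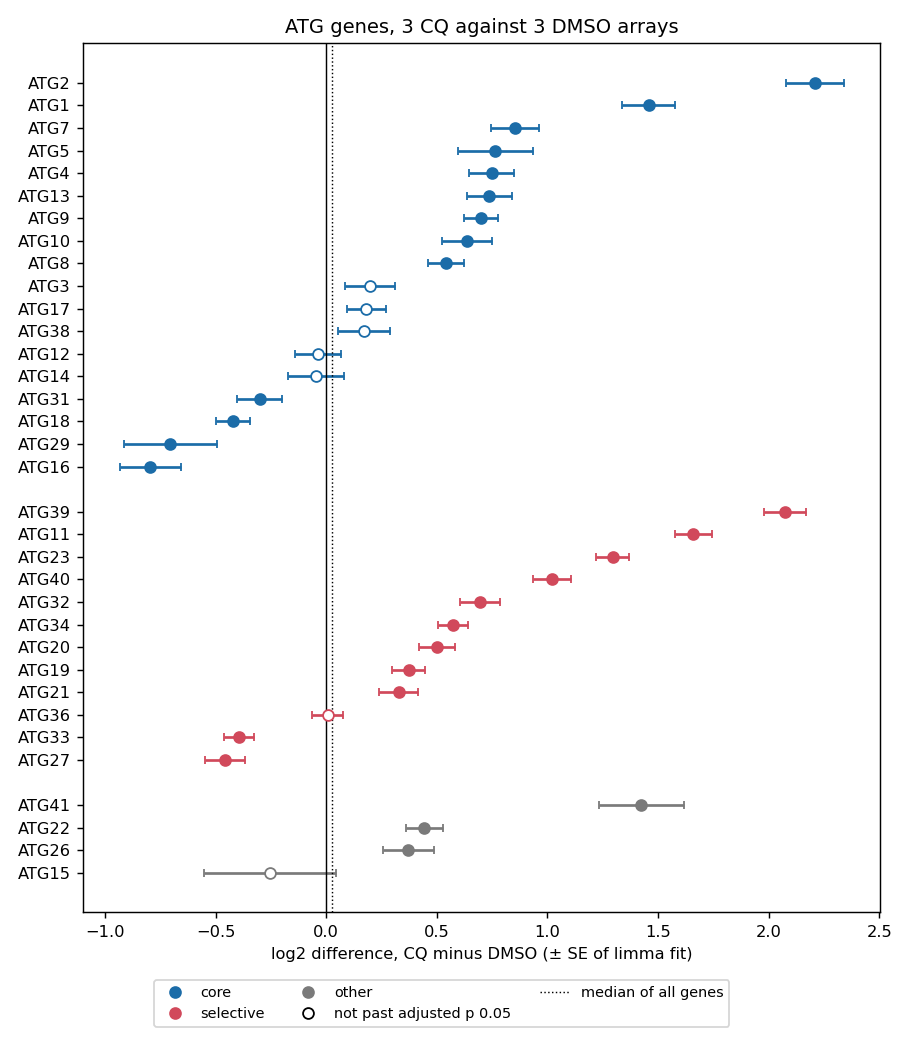
Log2 difference (CQ minus DMSO) of each of the 34 ATG genes with its standard error, sorted within the core, selective and other classes; filled points passed an adjusted p of 0.05 and the dotted line is the median of all genes, 0.02. ATG2 (2.21) and ATG39 (2.07) lie highest, ATG16 (-0.79) and ATG29 (-0.70) lowest.

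The Atg1 kinase complex starts the process, and its 5 genes split. ATG1 (YGL180W), which encodes the protein kinase itself, went from 884, 886 and 797 with DMSO to 2171, 2161 and 2852 with CQ. The lowest CQ value was over the highest DMSO value by a wide margin, and the gene rose by 1.46 ± 0.12 (adjusted p = 2.21e-05). ATG13 (YPR185W), the regulatory subunit that TORC1 phosphorylates, went from 428, 397 and 404 to 686, 614 and 792, an increase of 0.74 ± 0.10 (adjusted p = 0.000343). The other 3 genes encode the scaffold that gathers the kinase in starvation-induced autophagy, and none of them rose. ATG29 (YPL166W) went from 698, 709 and 864 to 389, 367 and 665, and fell by 0.70 ± 0.21 (adjusted p = 0.018). Its CQ replicate 3 lay close to the DMSO arrays. ATG31 (YDR022C) fell by 0.30 ± 0.10 (adjusted p = 0.0294), from 1549, 1381 and 1428 to 1214, 1297 and 1032. ATG17 (YLR423C) read 667, 678 and 658 with DMSO and 762, 835 and 689 with CQ, so that the groups did not overlap, but its difference of 0.18 ± 0.09 did not pass (adjusted p = 0.0962).

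Both decreases in the scaffold were weakly held. The ATG29 call was lost without DMSO replicate 3 (-0.61) or CQ replicate 1 (-0.59), and its difference was 0.15 with the index as a covariate. ATG31 lost its call when any array other than CQ replicate 2 was left out: -0.25, -0.34 and -0.31 without DMSO replicates 1, 2 and 3, and -0.32 and -0.21 without CQ replicates 1 and 3. With the index it was lower by more, at -0.62 (adjusted p = 0.00967). ATG17 passed as higher without CQ replicate 3, at 0.25, and stood at -0.09 with the index.

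Among the genes for membrane supply, ATG2 (YNL242W) had the largest increase of the 34. It encodes a lipid transfer protein that feeds the growing membrane. Its intensities were 317, 281 and 284 with DMSO and 1431, 1174 and 1690 with CQ. The increase was 2.21 ± 0.13 (adjusted p = 5.15e-06), and 0.95% of all genes had a larger log2 difference. ATG9 (YDL149W), a transmembrane protein whose vesicles seed the membrane, went from 546, 554 and 556 to 891, 862 and 970, an increase of 0.70 ± 0.08 (adjusted p = 8.5e-05). ATG18 (YFR021W), which binds phosphatidylinositol 3-phosphate and acts together with Atg2, went the other way. It read 884, 869 and 869 with DMSO and 694, 605 and 648 with CQ, and fell by 0.42 ± 0.08 (adjusted p = 0.00159). ATG18 stood at -0.31 with the index as a covariate and did not pass (adjusted p = 0.0955).

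The genes for the Atg14 and Atg38 subunits of the lipid kinase complex that makes this phospholipid for autophagy did not pass the threshold. ATG14 (YBR128C) read 712, 627 and 610 with DMSO and 610, 748 and 540 with CQ, a difference of -0.05 ± 0.13. Its sign depended on single arrays, with 0.02 without DMSO replicate 1 and 0.06 without CQ replicate 3, and with the index as a covariate it was -0.54 (adjusted p = 0.0148). ATG38 (YLR211C) read 507, 479 and 547 with DMSO and 653, 484 and 607 with CQ, a difference of 0.17 ± 0.12. CQ replicate 2 was its low CQ array, and the gene passed as higher without it (0.29, adjusted p = 0.0128) and with the index as a covariate (0.56).

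The ubiquitin-like protein Atg8 is joined to a lipid of the growing membrane. Its gene and those of its enzymes rose in 3 of 4 cases (36.1% of all genes). ATG8 (YBL078C) went from 3834, 3846 and 3742 to 5427, 6066 and 5189. All CQ arrays lay above all DMSO arrays, and the increase was 0.54 ± 0.08 (adjusted p = 0.000568). ATG7 (YHR171W), the activating enzyme of both conjugation systems, went from 779, 693 and 702 to 1265, 1186 and 1531 and rose by 0.85 ± 0.11 (adjusted p = 0.000224). ATG4 (YNL223W), the protease that processes Atg8 and frees it from the membrane, went from 666, 623 and 565 to 932, 1078 and 1142 and rose by 0.75 ± 0.10 (adjusted p = 0.000313). The gene of the conjugating enzyme, ATG3 (YNR007C), did not pass. It read 1632, 1523 and 1613 with DMSO and 1927, 1541 and 2054 with CQ (0.20 ± 0.11), with CQ replicate 2 inside the DMSO range. Without that array ATG3 passed at 0.32, and it stood at 0.63 with the index as a covariate, while ATG8 then stood at 0.30 and did not pass (adjusted p = 0.0706).

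In the Atg12 system, whose product helps to attach Atg8 to the lipid, 2 genes rose and 1 fell (36.1% and 31.9% of all genes). ATG5 (YPL149W), which receives Atg12, went from 1102, 693 and 734 to 1560, 1328 and 1359, an increase of 0.76 ± 0.17 (adjusted p = 0.00437). DMSO replicate 1 stood well above the other DMSO arrays. ATG10 (YLL042C), the conjugating enzyme of Atg12, went from 159, 135 and 132 to 228, 260 and 202, an increase of 0.64 ± 0.11 (adjusted p = 0.00127). ATG12 (YBR217W) itself did not pass, at -0.04 ± 0.10, with 640, 651 and 666 against 600, 742 and 577. Its sign turned without CQ replicate 1 (0.01) or CQ replicate 3 (0.03), and ATG12 stood at -0.39 with the index as a covariate (adjusted p = 0.0518). ATG16 (YMR159C), which holds Atg12 and Atg5 together in a larger complex, had the lowest log2 difference of the 34 genes in the fit as described. Its probe set was dim, with 94.9, 84.9 and 79.1 in the DMSO group and 49.0, 31.2 and 50.5 in the CQ group, of which CQ replicate 2 lay under its background level of 42.0. The gene fell by 0.79 ± 0.14 (adjusted p = 0.00129). Being so dim it depended on the pseudocount, with -0.49 at a pseudocount of 64, where ATG29 was lower (-0.65), as ATG29 also was without CQ replicate 3 (-0.97 against -0.88). With the index as a covariate ATG5 (0.75), ATG10 (0.26) and ATG16 (-0.32) did not pass, at adjusted p = 0.0969, 0.196 and 0.207.

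**Figure D2:**
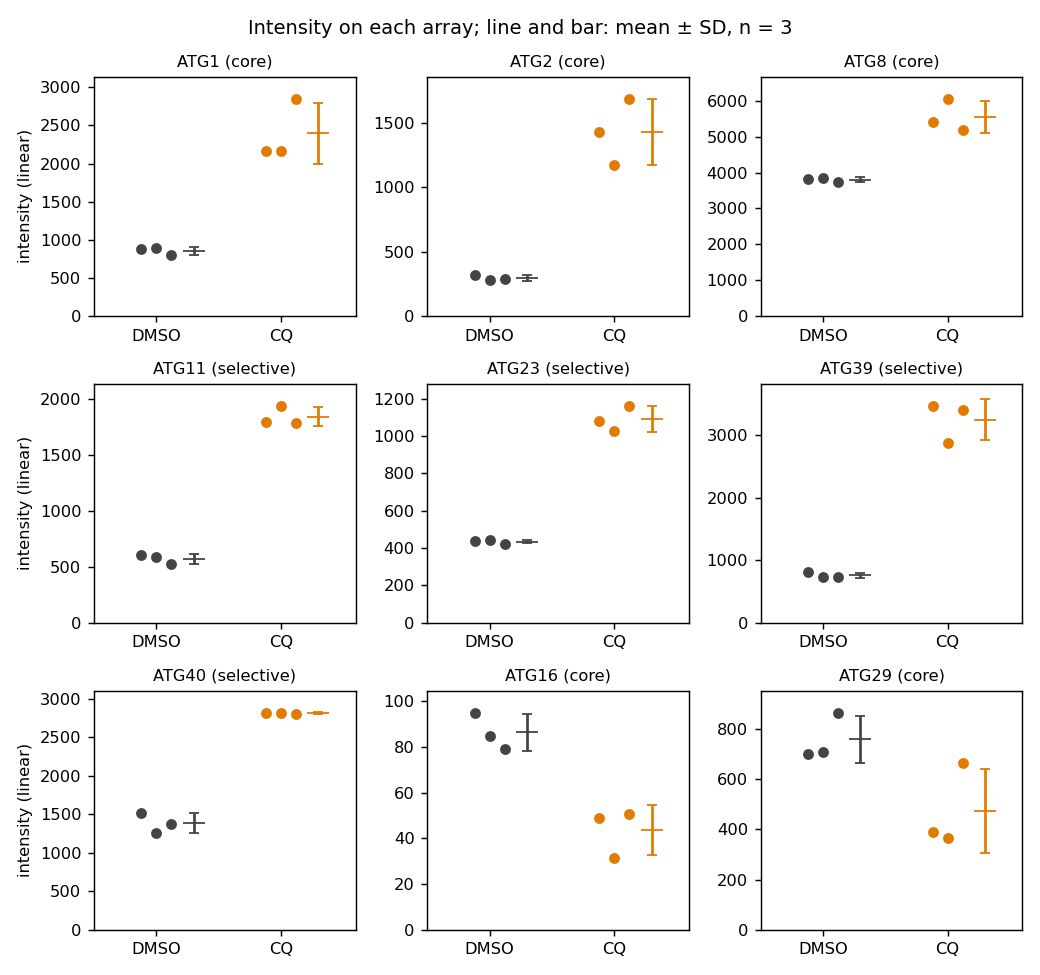
Linear intensity of 9 ATG genes on each of the 3 DMSO and 3 CQ arrays, with the mean and standard deviation at the right of each group; every axis starts at 0. The groups do not overlap for any of the 9 genes, and CQ replicate 3 of ATG29 (665) comes closest to the DMSO arrays.

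Among the selective genes, ATG11 (YPR049C) encodes the scaffold that links cargo receptors to the Atg1 kinase. Its intensities were 610, 585 and 525 with DMSO and 1797, 1941 and 1789 with CQ, an increase of 1.66 ± 0.08 (adjusted p = 2.93e-06). The receptor genes for endoplasmic reticulum rose as well. ATG39 (YLR312C), the receptor of the perinuclear part, went from 806, 732 and 735 to 3474, 2878 and 3400 and rose by 2.07 ± 0.10 (adjusted p = 2.1e-06), the second largest increase of the 34 genes. ATG40 (YOR152C), the receptor of the cortical and cytoplasmic parts, went from 1519, 1260 and 1375 to 2817, 2820 and 2802 and rose by 1.02 ± 0.09 (adjusted p = 2.48e-05). The 3 CQ arrays of ATG40 lay within 17.6 intensity units of one another.

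Receptors and factors for mitochondria and peroxisomes did not follow a common direction. ATG32 (YIL146C), the mitophagy receptor, went from 1673, 1599 and 1534 to 2654, 2351 and 2817 and rose by 0.69 ± 0.09 (adjusted p = 0.000231). ATG33 (YLR356W), a mitochondrial outer membrane protein with a role in mitophagy, fell by 0.39 ± 0.07 (adjusted p = 0.00129), from 5076, 5234 and 5038 to 4021, 3806 and 3841. Both had groups without overlap. The peroxisome receptor gene ATG36 (YJL185C) read 2698, 2870 and 2801 with DMSO and 2738, 2882 and 2784 with CQ. Its difference of 0.01 ± 0.07 did not pass (adjusted p = 0.945), and its sign was negative under each of the 3 other scalings of the arrays, without DMSO replicate 1 (-0.02) and without CQ replicate 2 (-0.01).

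ATG11, the Cvt factor genes ATG19, ATG20 and ATG21, and ATG34 were grouped together, and all 5 of these genes rose (36.1% of all genes). ATG19 (YOL082W), the receptor for the Cvt cargo, and ATG34 (YOL083W), its paralogue that carries alpha-mannosidase in starvation, are neighbours on their chromosome. ATG34 went from 2051, 2031 and 2103 to 3111, 3022 and 3089 (0.57 ± 0.07, adjusted p = 0.000141). ATG19 went from 2729, 2636 and 2743 to 3704, 3294 and 3525 (0.37 ± 0.08, adjusted p = 0.00279), and stood at 0.24 with arrays centred on their median. The annotation gives each of the paralogues a probe set of its own. ATG20 (YDL113C), a sorting nexin, rose by 0.50 ± 0.08 (adjusted p = 0.000824), from 995, 996 and 957 to 1400, 1506 and 1293. The smallest increase of the selective genes was in ATG21 (YPL100W), a relative of Atg18 that guides Atg8 attachment. It went from 1755, 1698 and 1690 to 2034, 2414 and 2037 (0.33 ± 0.09, adjusted p = 0.0114). With arrays centred on their median ATG21 stood at 0.19 and did not pass. With the index as a covariate neither ATG20 (0.27) nor ATG21 (0.06) passed.

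The pair that moves Atg9 to the site of membrane growth was opposed. ATG23 (YLR431C), a peripheral membrane protein, went from 438, 442 and 424 to 1081, 1026 and 1163, an increase of 1.29 ± 0.08 (adjusted p = 5.12e-06). ATG27 (YJL178C), its transmembrane partner, went from 2177, 2252 and 2208 to 1751, 1661 and 1430, and fell by 0.46 ± 0.09 (adjusted p = 0.00253). Neither gene had a CQ value inside its DMSO range.

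The remaining 4 members act in the vacuole or have other roles. ATG41 (YPL250C, also ICY2), which contributes to membrane formation in starved cells, went from 2981, 1640 and 1958 to 5799, 5845 and 5541 and rose by 1.42 ± 0.19 (adjusted p = 0.000311), with DMSO replicate 1 high in its group. ATG22 (YCL038C), which exports amino acids from the vacuole, went from 2522, 2362 and 2335 to 3450, 2985 and 3416 and rose by 0.44 ± 0.09 (adjusted p = 0.00205). ATG15 (YCR068W), the vacuolar lipase that opens the delivered bodies, had the most variable CQ arrays, at 589, 330 and 895 against 651, 636 and 727 with DMSO. The CQ arrays stood in the reverse order of their 3' to 5' indices. The difference was -0.25 ± 0.30 and did not pass (adjusted p = 0.473). Without CQ replicate 2 it was 0.11, and with the index as a covariate it was 1.18 (adjusted p = 0.000432). ATG26 (YLR189C), a sterol glucosyltransferase needed to degrade peroxisomes in the yeast Komagataella (Pichia) but not for autophagy in S. cerevisiae, rose by 0.37 ± 0.12 (adjusted p = 0.0208), from 1402, 1280 and 1190 to 1705, 1441 and 1895. That call was lost with arrays centred on their median (0.24) and without DMSO replicate 2 (0.37), DMSO replicate 3 (0.31), CQ replicate 1 (0.36) or CQ replicate 3 (0.28). ATG26 stood at 0.71 with the index as a covariate.

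Set against each other, the core and selective classes overlapped. Of 18 core genes 9 rose, 4 fell and 5 did not pass, with differences from -0.79 to 2.21. Of 12 selective genes 9 rose, 2 fell and 1 did not pass, with differences from -0.46 to 2.07. Thus 50% of the core and 75% of the selective genes rose, against 36.1% of all genes, and 22.2% and 16.7% fell, against 31.9%. The median difference was 0.37 for core and 0.54 for selective genes, and the means were 0.38 and 0.64. On each array the mean shift of the members from their DMSO means was taken. For core genes it was 0.07, -0.04 and -0.03 with DMSO and 0.38, 0.33 and 0.44 with CQ. For selective genes it was 0.03, -0.01 and -0.02 with DMSO and 0.66, 0.63 and 0.63 with CQ, whereas the mean over all genes was 0.03 to 0.07 on the CQ arrays. The core shift minus the selective shift was therefore -0.28, -0.30 and -0.18 with CQ and between -0.04 and 0.04 with DMSO.

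That contrast moved with the choice of core genes. Without ATG17, ATG29 and ATG31, whose scaffold serves bulk rather than selective autophagy, the core median was 0.64, above the selective median of 0.54, and the mean core minus selective difference went from -0.26 to -0.12. With ATG23 and ATG27 counted as core, both medians stayed at 0.37 and 0.54 and the mean difference was -0.30. With the index as a covariate the mean difference was -0.15. No test of the classes against each other was made, and the spread within each class was wider than the distance between them.

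**Figure D3:**
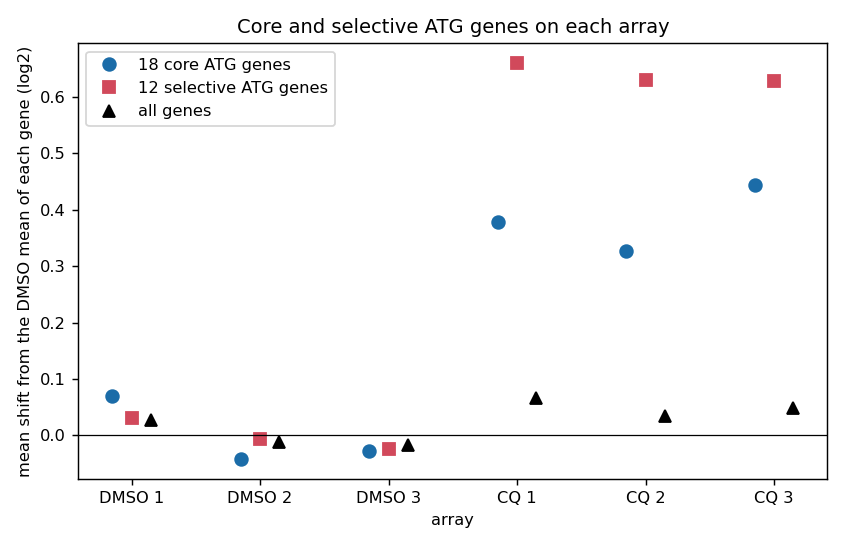
Mean shift of 18 core and 12 selective ATG genes and of all genes from the DMSO mean of each gene (log2) on each of the 6 arrays. Selective genes lie at 0.63 to 0.66 and core genes at 0.33 to 0.44 on the CQ arrays, with all genes at 0.03 to 0.07.

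The log2 difference of the members increased with coding length. Coding length was taken as the length of the gene in a RefSeq gene table. It is not the exact coding length of every gene, since that of ATG38 (740) is not a whole number of codons. Among the 34 genes the Spearman correlation of coding length with the log2 difference was 0.42, among the 18 core genes 0.60, and over all 5449 genes 0.22. These points share the arrays, and all rest on the same 6 libraries. Of 18 ATG genes longer than the median gene of 1236 bases, 15 rose and 1 fell. Of the 16 at or under that length, 6 rose and 5 fell. Over all genes 45.1% of the longer and 27.2% of the shorter ones rose, and 25.3% and 38.5% fell. Among the ATG genes 83.3% of the longer and 37.5% of the shorter ones rose, and 5.56% and 31.25% fell. ATG2 (4779 bases), ATG11 (3537) and ATG1 (2694) were among the longest members, and ATG16 (453), ATG31 (591) and ATG29 (642) among the shortest. The short genes ATG8 (354), ATG41 (411), ATG10 (504) and ATG40 (771) nevertheless rose.

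After the length trend of all genes was taken from each array, an alternative added once the data had been seen, 21 ATG genes were higher and 4 lower. Over all genes the counts in that fit were 1817 higher and 1864 lower, in place of 1969 and 1739. ATG3 gained a call there (0.30, adjusted p = 0.0483) and ATG26 lost its own. ATG2 then stood at 1.53, ATG11 at 1.16, ATG1 at 1.12 and ATG9 at 0.30, all past the threshold. ATG39 (2.13), ATG23 (1.31) and ATG40 (1.13) were little affected. ATG26 stood at -0.14, and ATG29 (-0.59) and ATG31 (-0.19) did not pass. The core median became 0.30 and the selective median 0.52.

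**Figure D4:**
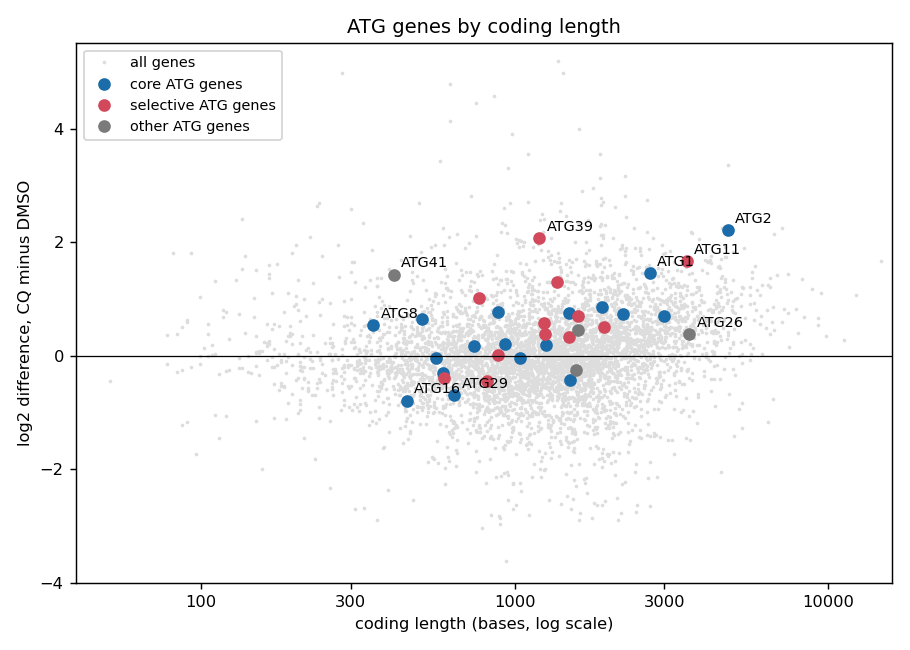
Log2 difference (CQ minus DMSO) against coding length in bases (log scale) for the ATG genes by class, with all genes in grey. ATG2, ATG11 and ATG1 lie at the long, high end, ATG16 and ATG29 at the short, low end, and ATG39, ATG41 and ATG8 are high at shorter lengths.

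Genes that work with the ATG proteins under other names gave mixed differences. Of 7 partner genes in lipid kinase and membrane traffic, 4 rose and none fell, with a median of 0.23, so that 57.1% passed against 68.0% of all genes. VPS30 (YPL120W), the Atg6 subunit of the lipid kinase complex, rose by 0.55 ± 0.12 (adjusted p = 0.00375), from 591, 609 and 670 to 868, 1094 and 814. The catalytic subunit gene VPS34, named after its value was seen, did not pass, at -0.03 ± 0.08. It stood at 0.02 without DMSO replicate 1 and 0.01 without CQ replicate 2, and was lower with the length trend removed (-0.34, adjusted p = 0.00209). The sorting nexin gene SNX4 (0.40 ± 0.10) and the regulatory kinase gene VPS15 (0.39 ± 0.10) rose. TRS85, of a vesicle tethering complex and the last of the 4, rose by 0.23 ± 0.07 but did not pass under any of the 3 other scalings (0.10 to 0.17), with the index, without the length trend (0.06), or without DMSO replicate 1 (0.23) or 2 (0.20). With the index as a covariate VPS30 (0.17), SNX4 (0.09) and VPS15 (0.30) did not pass. SNX4 also did not pass with arrays centred on their median (0.26), and VPS15 was lower with the length trend removed (-0.23, adjusted p = 0.0446).

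Genes for fusion of the finished membrane with the vacuole split. Of 13 genes 6 rose, 3 fell and 4 did not pass, with a median of 0.23, so that 69.2% passed against 68.0% of all genes. MON1 (0.93 ± 0.09) and CCZ1 (0.80 ± 0.10), whose products activate the Rab protein Ypt7, rose, as did the tethering subunit gene VAM6 (0.96 ± 0.12, and 0.53 with the length trend removed). The Rab gene YPT7 (-0.60 ± 0.08) and the vacuolar SNARE genes VAM3 (-0.78 ± 0.08) and VAM7 (-0.60 ± 0.15) fell. YPT7, VAM3 and VAM7 were chosen after their values were seen, being the members that fell. VAM7 stood at 0.01 with the index as a covariate, and VAM3 was not followed through the alternative fits. Of 6 vacuolar hydrolase genes 3 rose and none fell, with a median of 0.19: the protease genes PRB1 (0.41 ± 0.07), CPS1 (0.35 ± 0.09) and PRC1 (0.28 ± 0.07). CPS1 (0.22) and PRC1 (0.15) did not pass with arrays centred on their median. PRC1 also did not pass with the index as a covariate (0.33, adjusted p = 0.0596), where CPS1 stood at 0.60. The 50% of this list that passed compare with 68.0% of all genes.

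The 4 genes of enzymes that the Cvt route carries went both ways, 2 higher and 2 lower (36.1% and 31.9% of all genes). The cargo that gives the route its name, aminopeptidase I (APE1, YKL103C), read 7234, 7096 and 7252 with DMSO and 5253, 5037 and 4786 with CQ, and fell by 0.52 ± 0.07 (adjusted p = 0.000357). The aspartyl aminopeptidase gene APE4 fell by 0.76 ± 0.07 (adjusted p = 3.92e-05). The alpha-mannosidase gene AMS1 rose by 1.02 ± 0.09 (0.57 with the length trend removed) and the cysteine protease gene LAP3 by 0.68 ± 0.09.

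Regulators of ATG transcription were higher in 6 of 10 cases and lower in 2 (36.1% and 31.9% of all genes), with a median of 0.30. UME6 (YDR207C), which represses ATG8 in growing cells, went from 295, 307 and 331 to 602, 836 and 808, an increase of 1.21 ± 0.13 (adjusted p = 7.88e-05). RPH1 (YER169W), a histone demethylase that represses several ATG genes, went from 863, 904 and 897 to 1644, 1321 and 1837, an increase of 0.83 ± 0.12 (adjusted p = 0.000444). RPH1 stood at 1.30 with the index as a covariate. Transcripts of both repressors were higher in the cultures in which ATG8 was higher. GCN4 (YEL009C), an activator of ATG genes in amino acid starvation whose output is set mainly by translation, read 9971, 10260 and 10015 with DMSO and 7732, 6772 and 6958 with CQ, and fell by 0.50 ± 0.08 (adjusted p = 0.000733). The stress activator gene MSN4 fell by 0.85 ± 0.10, or 0.48 with the index as a covariate. MSN2, the other stress activator gene of the list, rose by 0.30 ± 0.10 (adjusted p = 0.0259). MSN2 was named after its value was seen and was not followed through the alternative fits.

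Of 12 measured genes of nutrient signalling to the Atg1 kinase 4 rose, 1 fell and 7 did not pass, with a median of 0.10. The share that rose, 33.3%, lay near the 36.1% of all genes. The TORC1 subunit genes KOG1 (1.35 ± 0.12) and LST8 (0.92 ± 0.21) and the kinase gene RIM15 (1.21 ± 0.18), which acts when TORC1 and protein kinase A are low, had the largest differences. For LST8, DMSO replicate 1 was high in its group (1547 against 869 and 917). Its difference ran from 0.77 to 1.18 when single arrays were left out. The fourth gene that rose was the TORC1 kinase gene TOR1 (0.75 ± 0.11), at 0.31 and not past the threshold with the index as a covariate and at -0.17 with the length trend removed. The phosphatase regulator gene TAP42 fell by 0.42 ± 0.10, and did not pass with the index (-0.43). TOR1 and TAP42 were named after their values were seen. With the length trend removed KOG1 stood at 0.68 and RIM15 at 0.47, and with the index as a covariate RIM15 stood at 1.98.

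**Figure D5:**
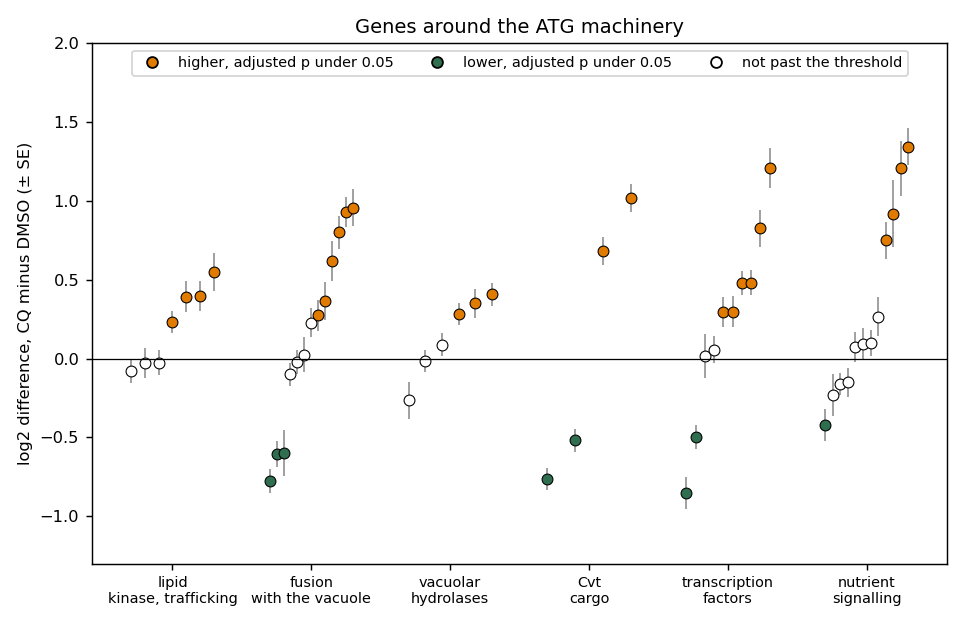
Log2 difference (CQ minus DMSO) with standard error of each measured gene of 6 lists around the ATG machinery, sorted within the list; orange points rose, green points fell and open points did not pass. Every list has members on both sides of 0, though no gene of the lipid kinase and hydrolase lists fell. UME6 (1.21) and KOG1 (1.35) are the highest points of the transcription and signalling lists.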

How the data were processed

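Labelled cRNA of 6 cultures was hybridised to Affymetrix arrays, 1 array per culture. The deposited table holds 1 linear intensity per probe set and array. How the authors summarised and scaled the arrays is not given in the sources used here, and total mRNA per cell was not measured. Of 10928 probe sets, 5498 were annotated to 1 S. cerevisiae gene, and 1746 fission yeast probe sets gave the background. Symbols were updated by gene identifier through a RefSeq table (R64). For genes with several probe sets the one with the highest mean log2(intensity + 16) was used, which left 5449 genes. No chromosome coordinates or promoter sequences are given, since the build of the array annotation is not named and no sequences were used here.

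The CQ and DMSO groups were compared over all genes by the two-sided moderated test of limma 3.58.1 in R 4.3.3 (functions lmFit and eBayes), with a threshold of 0.05 on the Benjamini-Hochberg adjusted p. The fit was tested on simulated data. Plots used matplotlib 3.10.9. The number of arrays limits the precision. The ATG genes, their core and selective classes and the 6 lists of related genes were chosen with earlier results of these data known. All members were named. From each list up to 3 genes past the threshold without overlap, by size of difference, were named, and UME6, RPH1, GCN4 and APE1 whatever their values. VPS34, TRS85, YPT7, VAM3, VAM7, MSN2, TOR1 and TAP42 were added after their values were seen. Alternatives were other scalings, pseudocounts, filters, variance models and probe set summaries, the replicate block, leaving out each array, the 3' to 5' index, and other class memberships. Removal of a coding-length trend (lowess on log2 coding length, per array) was added after the data were seen.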

Additional observations from a re-analysis of the deposited data

How the results depend on the processing

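Of the 21 ATG genes that rose, 15 kept their direction and call under all 18 alternative fits, as did 2 of the 6 that fell, ATG27 and ATG33. Not all of these fits could change a direction. The mean of probe sets left the ATG values as they were, since each ATG gene had 1 probe set. The background filter, the variance models and the replicate block left the log2 differences unchanged and could alter only the call. The matching share over all genes was not taken. The counts of ATG genes were 20 to 23 higher and 4 to 6 lower when single arrays were left out, and 19 and 4 when the 3' to 5' index was held as covariate. With the index the counts over all genes also went down, to 1596 higher and 1408 lower. Leaving out arrays gave a core median of 0.37 to 0.42, a selective median of 0.52 to 0.56, and a mean core minus selective difference of -0.29 to -0.23. The counts over all genes were then 1701 to 2109 higher and 1526 to 1847 lower. The selective median moved to 0.48 with quantile normalization, 0.48 with centring on the 75th percentile and 0.40 with centring on the median, which shifts all genes by -0.14. The core median moved to 0.36, 0.31 and 0.24 under the same 3 scalings. It was 0.43 with the index, 0.30 without the length trend and 0.64 without ATG17, ATG29 and ATG31. The core minus selective difference moved to -0.15 with the index and -0.12 without those 3 genes. Signs turned for ATG36 with quantile normalization (-0.0033), centring on the median (-0.13) or the 75th percentile (-0.054) and the index (-0.046). They turned for ATG17 (-0.092), ATG29 (0.15), ATG15 (1.18), VPS34 (0.10) and VAM7 (0.0065) with the index, and for ATG12 (0.073), ATG14 (0.037), ATG26 (-0.14), VPS15 (-0.23) and TOR1 (-0.17) without the length trend. Over the fits that left out single arrays, ATG12 ran from -0.14 to 0.032, ATG14 from -0.17 to 0.058, ATG15 from -0.59 to 0.11, VPS34 from -0.065 to 0.016 and ATG36 from -0.018 to 0.027. The causes were not tested.

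With the replicate number as a block the ATG counts were again 21 and 6, and those over all genes 1971 and 1738. Deviations of same-numbered arrays correlated at 0.05, 0.12 and 0.14, each array best with its own number, a hint from the data and not the design. The sample labels state no pairing, and for that reason the samples were treated as unpaired.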
